A study of Mus musculus with 22 samples.

Results

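Lungs of BALB/c mice were sampled after aerosols of buffered saline (PBS), of the airway-constricting muscarinic agonist methacholine (MCh) or of ovalbumin (OVA), the egg-white protein used as allergen, and the data described here are the levels of 10 immediate early transcription factors: Fos, Fosb, Jun, Junb, Egr1, Egr2, Atf3, Ier2, Nr4a1 and Klf2. They were taken by symbol from a table of 20938 genes, and all 10 were found and passed the filter on low values, 3 or more libraries with an FPKM of 0.1 or above. FPKM counts fragments per kilobase of transcript, scaled to the library's total. The 22 libraries, each from total RNA of lung, form 6 groups, with 3 PBS, 4 MCh and 4 OVA libraries in a short protocol (3 consecutive days of aerosol) and the same numbers in a long protocol (3 times a week for 4 weeks). By the treatment labels every group, PBS and MCh included, had an intraperitoneal sensitization at 49 days of age, a booster at 63 days and aerosols from 70 days; the agent injected is not named, the titles call PBS and MCh animals normal, and the title of the short MCh group gives 4 days. The time between the last aerosol and the removal of the lung is not given in the sources used here. Short PBS, short MCh, short OVA and long PBS libraries carry the replicate numbers of the labels; the long MCh and long OVA libraries could be placed only in their group and are called a to d.

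Immediate early genes are transcribed within minutes of a stimulus without new protein synthesis, because the factors that switch them on, such as serum response factor with its Elk partners, CREB and MEF2, are already present and are activated by kinases. Fos and Jun family proteins pair through leucine zippers to form AP-1, Egr1 and Egr2 are zinc finger factors, Atf3 is a stress-induced member of the ATF and CREB family, Nr4a1 is an orphan nuclear receptor, and Ier2 encodes a nuclear protein of the early response. Klf2 differs from the others in being held high in quiescent endothelium under laminar flow and in naive lymphocytes. Tissue handling and dissociation are also known to induce most of these genes, and whole lung mixes epithelial, endothelial, stromal and blood-derived cells.

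The stretches upstream of 5 members are shown because these 5 changed after short OVA: Atf3, Egr2 and Junb, which rose, and Jun and Klf2, which fell. RefSeq windows on GRCm38.p6 matched 8 of the 10 members, all but Egr1 and Ier2. Each sequence is the 250 bases before the RefSeq start site, 5′ to 3′ on the gene's strand. Atf3 is at chr1:191183334-191183583 on the minus strand, Egr2 at chr10:67537619-67537868 on the plus strand, Junb at chr8:84978749-84978998 on the minus strand, Jun at chr4:95052223-95052472 on the minus strand and Klf2 at chr8:72318812-72319061 on the plus strand. The start sites used for Klf2 and Junb lie 29 and 30 bases from the annotated start of the measured transcript, and that of Atf3 lies 7 bases from it. Capitals mark a TGACG core of the cyclic AMP response element on either strand (CGTCA where it lies on the other strand), a CArG box, the site type bound by serum response factor, or a MEF2 site.
Atf3: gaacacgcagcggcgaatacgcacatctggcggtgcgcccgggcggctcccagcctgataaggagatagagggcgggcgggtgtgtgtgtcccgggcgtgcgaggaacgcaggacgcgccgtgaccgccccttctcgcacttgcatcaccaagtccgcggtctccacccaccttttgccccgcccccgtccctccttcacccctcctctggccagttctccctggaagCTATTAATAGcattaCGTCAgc
Egr2: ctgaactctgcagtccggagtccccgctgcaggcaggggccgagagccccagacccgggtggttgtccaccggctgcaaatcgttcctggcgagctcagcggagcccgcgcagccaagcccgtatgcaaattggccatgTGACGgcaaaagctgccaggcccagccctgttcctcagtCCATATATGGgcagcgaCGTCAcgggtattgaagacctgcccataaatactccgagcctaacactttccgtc
Junb: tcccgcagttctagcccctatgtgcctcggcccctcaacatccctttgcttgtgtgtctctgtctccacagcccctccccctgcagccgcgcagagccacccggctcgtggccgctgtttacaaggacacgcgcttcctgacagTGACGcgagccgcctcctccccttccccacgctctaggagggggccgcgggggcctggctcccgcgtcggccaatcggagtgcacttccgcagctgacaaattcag
Jun: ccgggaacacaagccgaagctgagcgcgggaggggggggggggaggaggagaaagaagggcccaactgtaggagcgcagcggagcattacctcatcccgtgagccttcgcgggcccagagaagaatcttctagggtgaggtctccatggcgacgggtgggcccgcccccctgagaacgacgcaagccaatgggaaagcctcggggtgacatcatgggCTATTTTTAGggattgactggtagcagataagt
Klf2: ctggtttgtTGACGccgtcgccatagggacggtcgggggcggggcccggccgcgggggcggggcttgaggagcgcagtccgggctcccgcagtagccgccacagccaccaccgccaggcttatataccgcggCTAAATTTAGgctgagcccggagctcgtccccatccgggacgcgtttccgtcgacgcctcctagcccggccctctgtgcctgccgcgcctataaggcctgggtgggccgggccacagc

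Windows of 300 bases, from 250 before to 50 after the start site, were searched on both strands. The TGACG core stood in 7 of the 8 member windows, those of Fos, Fosb, Junb, Egr2, Atf3, Nr4a1 and Klf2, against 20.8% of all 32851 RefSeq windows of that length. Nr4a1 held 4 such cores and Fos and Egr2 held 2 each. The core is contained in the full element TGACGTCA, which was in 0 of the 8 windows and in 1.79% of all windows. A MEF2 site stood in the windows of Jun (CTATTTTTAG at -33 to -24), Atf3 (CTATTAATAG at -22 to -13) and Klf2 (CTAAATTTAG at -118 to -109), against 0.557% of all windows, and a CArG box stood only in that of Egr2 among the 8 (CCATATATGG at -72 to -63), against 1.63%. The AP-1 site TGANTCA was in 0 of the 8 windows and in 7.81% of all windows. These matches describe letters in the windows searched and say nothing of binding. Sites outside the windows, and spellings other than the patterns used, were not searched. A member without a match may thus carry a site elsewhere, or in another spelling within its window.

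Per length, Jun, Klf2, Junb and Ier2 made up most of the members' signal in the control lungs. Levels between genes were compared only in the transcript table, because the gene table divides by a denominator that differs from gene to gene: the ratio of its value to the transcript value was constant for a gene with 1 transcript but ranged from 0.367 for Junb to 1.24 for Fos. In the short PBS group the transcript FPKM was 76.1 ± 8.36 for Jun, 63.1 ± 13.7 for Klf2, 30.2 ± 2.75 for Junb and 28.9 ± 3.60 for Ier2 (SD, n = 3). Fos was next at 13.3 ± 1.96, then Nr4a1 at 7.57 ± 2.09, Egr1 at 5.94 ± 0.760, Atf3 at 4.29 ± 1.49, Egr2 at 1.68 ± 0.357 and Fosb at 0.874 ± 0.333 (SD, n = 3). The spreads of Jun and Klf2, of Junb and Ier2, and of Nr4a1, Egr1 and Atf3 met or overlapped their neighbours in this order. Egr2 has 6 transcripts in the table, of which NM_010118 carried 1.67 FPKM in short PBS. All values below are from the gene table and are compared only within a gene.

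The libraries differ in more than their groups. Two-sided tests below come from limma on log2(FPKM + 0.5), which understates folds of low genes such as Fosb, Egr2 and Atf3. A gene is called when its p, adjusted over all 15682 tested genes, is under 0.05. The labels call the replicates biological without naming animals, so the p-values measure the spread between these libraries. Long MCh libraries a and c and short MCh library 1 listed 34.3%, 33.8% and 28.3% of genes at 0, against 22.5% to 25.3% in the other 19. The short OVA libraries and short MCh library 4 had values that fell with transcript length across genes (Spearman's rho -0.475 to -0.395 and -0.645), whereas in the other 17 libraries rho lay between -0.0328 and 0.456. From the smallest steps of FPKM, 1 FPKM on 1 kilobase was worth an estimated 15.1 to 25.2 fragments per library, which places the members between a median of 51 fragments per library for Fosb and 3504 for Jun.

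**Figure D1:**
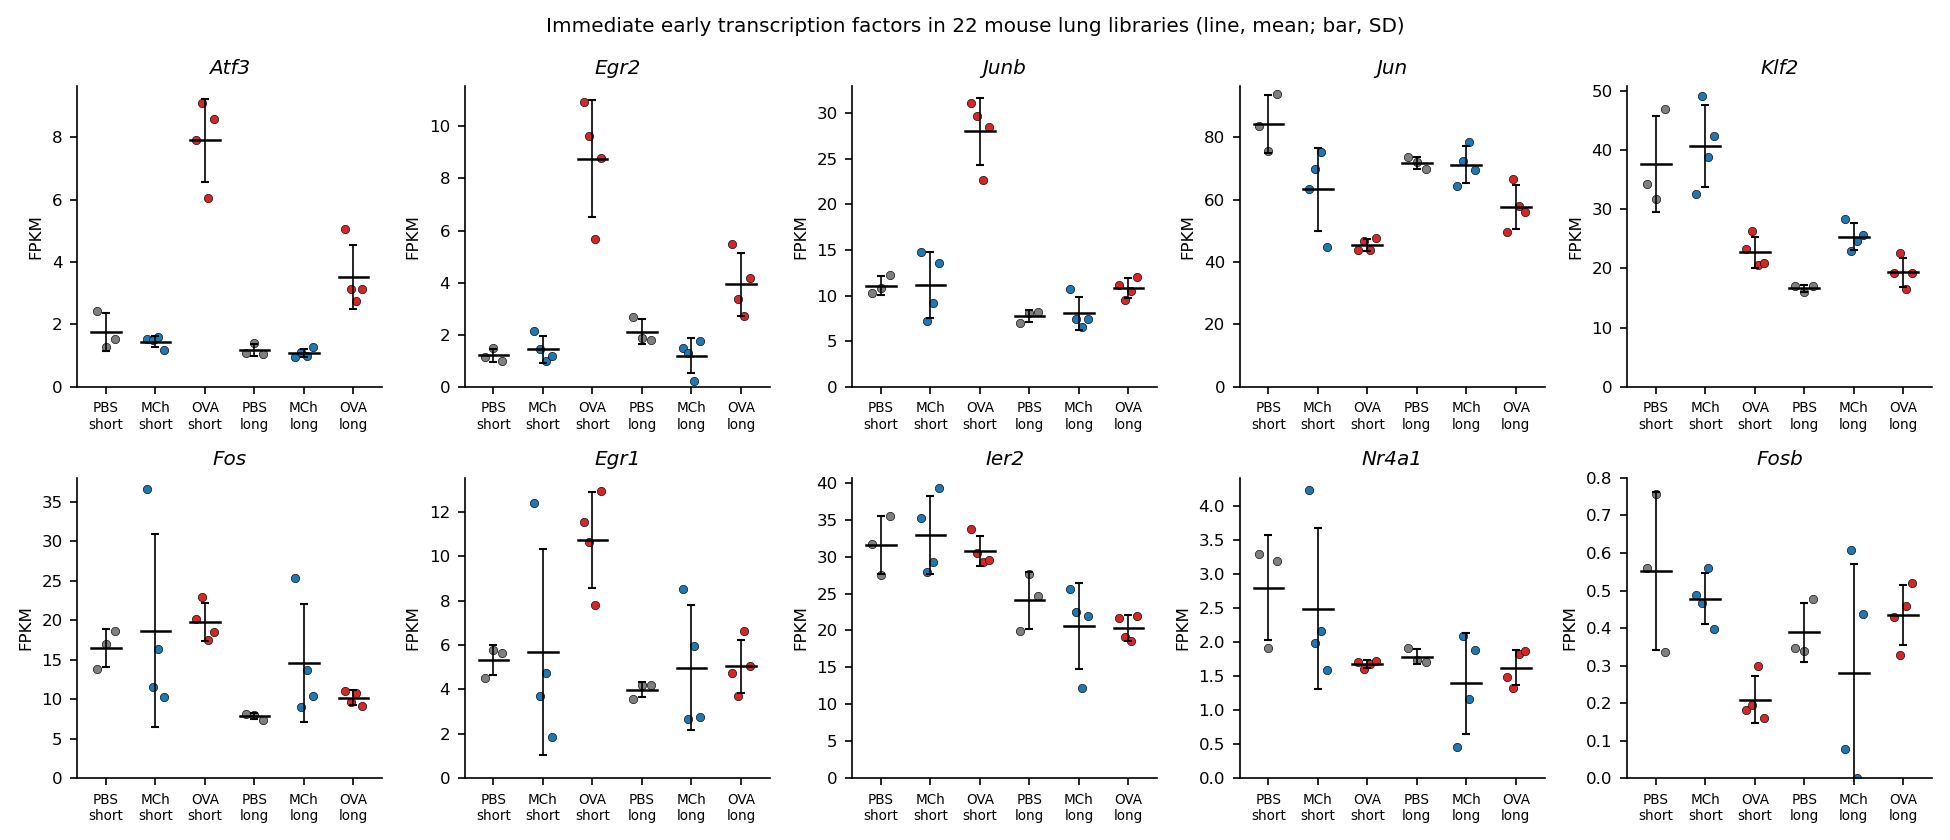
FPKM of each member (vertical axes, linear, each from 0) in the 6 groups (horizontal axes); each point is a library, the line is the group mean and the bar its SD. Atf3, Egr2 and Junb are high in all 4 short OVA libraries, Jun and Klf2 are lower there than in all 3 short PBS libraries, and Fos is highest in short MCh library 1 and long MCh library a.

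Short OVA challenge split the family: Atf3, Egr2 and Junb rose, Jun and Klf2 fell, and the other 5 members did not pass the test. Of all tested genes 12.4% were called higher and 11.7% lower in this comparison, so 3 of 10 higher and 2 of 10 lower lie not far above these shares. The median log2 difference of the members was 0.11, against -0.06 over all tested genes. In bulk lung, a change in the number of cells that express a gene and a change in RNA per cell cannot be told apart.

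Atf3 is induced by stress and inflammatory signals and represses or activates transcription depending on its partner. Its FPKM was 2.44, 1.27 and 1.55 in the short PBS libraries, 1.54, 1.49, 1.60 and 1.18 in short MCh and 7.90, 9.09, 6.05 and 8.57 in short OVA. Every short OVA library was thus above every other short library. The difference from PBS was 1.92 ± 0.20 on the log2 scale (SE; adjusted p = 1.45e-06), a 3.78-fold change, from a mean of 1.75 ± 0.609 (SD, n = 3) to 7.90 ± 1.33 (SD, n = 4).

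Egr2, a factor of myelination that is also induced in activated T cells and macrophages, showed the largest log2 difference of the 10 members. It stood at 1.14, 1.49 and 0.987 FPKM in short PBS and at 10.9, 9.64, 5.66 and 8.78 in short OVA. The 4 OVA values did not overlap the PBS values, and the lowest was the library labelled replicate 3, as it was for Atf3, Junb and Egr1. The log2 difference was 2.42 ± 0.33 (SE; adjusted p = 3.09e-05), or 5.34-fold. Egr1, the related factor that responds to growth factors and stretch, stood at 4.54, 5.79 and 5.63 FPKM in PBS and at 11.5, 10.6, 7.78 and 12.9 in OVA. These 2 groups did not overlap either, but the log2 difference of 0.93 ± 0.42 (SE) did not pass the test over all genes (adjusted p = 0.110).

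The 2 Jun genes among the members moved in opposite directions. Jun, the main transactivating partner in AP-1, was at 83.5, 75.5 and 93.9 FPKM in short PBS and at 44.0, 46.8, 43.7 and 47.7 in short OVA, a log2 difference of -0.88 ± 0.14 (SE; adjusted p = 1.40e-04). Junb, a weaker transactivator that can restrain Jun and is needed in type 2 helper T cells, was at 10.2, 10.9 and 12.2 FPKM in PBS and at 31.1, 29.7, 22.7 and 28.5 in OVA, a log2 difference of 1.29 ± 0.20 (SE; adjusted p = 1.26e-04). Neither pair of groups overlapped. On the transcript scale the ratio of Junb to Jun was 0.370, 0.433 and 0.392 in the short PBS libraries and 2.13, 1.91, 1.56 and 1.80 in the short OVA libraries, so that Junb was the more abundant transcript per length in each of the 4 short OVA lungs and in none of the 3 controls. Short MCh gave ratios of 0.703, 0.310, 0.367 and 0.911, of which the last is the library with the steepest length trend. The 4 short OVA libraries also had values that fell with length, and Junb, at 1809 bases, is shorter than Jun, at 3189. The ratios were not corrected for this trend, and its part in them was not tested. The ratio is a description chosen with the changes of both genes known and was not tested.

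**Figure D2:**
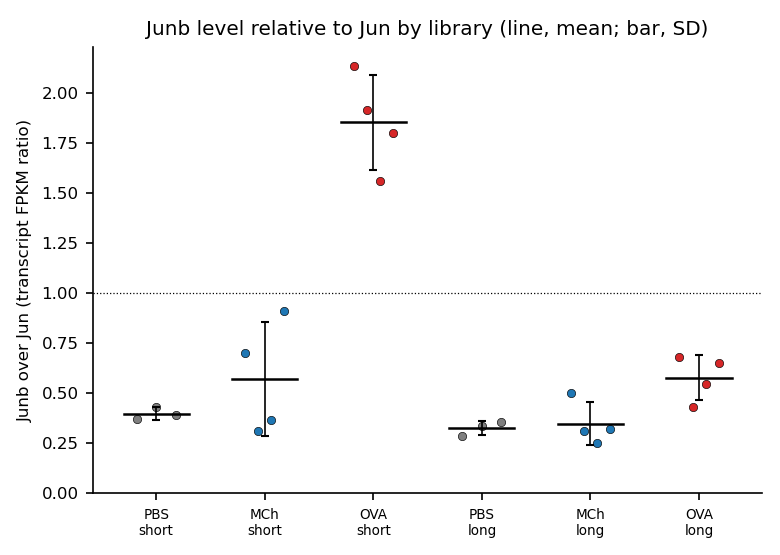
Ratio of Junb to Jun transcript FPKM (vertical axis, from 0) per library in the 6 groups, with the group mean (line) and SD (bar); the dotted line marks equal levels. The 4 short OVA libraries lie between 1.56 and 2.13 and all other libraries lie at or below 0.911. The ratios are not corrected for trends with transcript length.

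Klf2, which keeps endothelium anti-inflammatory and lymphocytes quiescent, was at 34.2, 31.7 and 46.9 FPKM in short PBS and at 23.2, 26.2, 20.5 and 20.9 in short OVA. All 4 OVA values were below the PBS values, and the log2 difference was -0.70 ± 0.15 (SE; adjusted p = 0.0018). Nr4a1 was at 3.29, 1.91 and 3.19 FPKM in PBS and within 1.60 to 1.73 in OVA, and Fosb was at 0.560, 0.758 and 0.337 in PBS and 0.181, 0.195, 0.300 and 0.160 in OVA. Both groups of values were apart, but neither gene passed the test (log2 -0.57 ± 0.29, adjusted p = 0.167 for Nr4a1, and -0.55 ± 0.21, adjusted p = 0.0605 for Fosb; SE). Fos itself, the prototype of the class, differed by 0.26 ± 0.33 (SE; adjusted p = 0.62; 95% interval -0.43 to 0.94) and Ier2 by -0.03 ± 0.19 (SE; adjusted p = 0.934), with overlapping values. In all, 4 members lay wholly above PBS and 4 wholly below, where 23.2% and 29.2% of all tested genes did so.

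The 5 calls held when the trend with transcript length was removed from each library, with log2 differences of 1.84 for Atf3, 2.47 for Egr2, 1.18 for Junb, -0.79 for Jun and -0.80 for Klf2, and whichever short PBS or short OVA library was left out. Without the 3 libraries with most genes at 0, none of which is in these 2 groups but which enter the shared estimate of spread, 8 of 10 members passed, Egr1 as higher (adjusted p = 0.0045) and Fosb and Nr4a1 as lower (0.0033 and 0.0055). Calls over all tested genes rose as well in that fit, from 24.2% to 43.0%. Ier2 had the opposite sign under median-of-ratios (0.04) and quantile scaling (0.02).

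**Figure D3:**
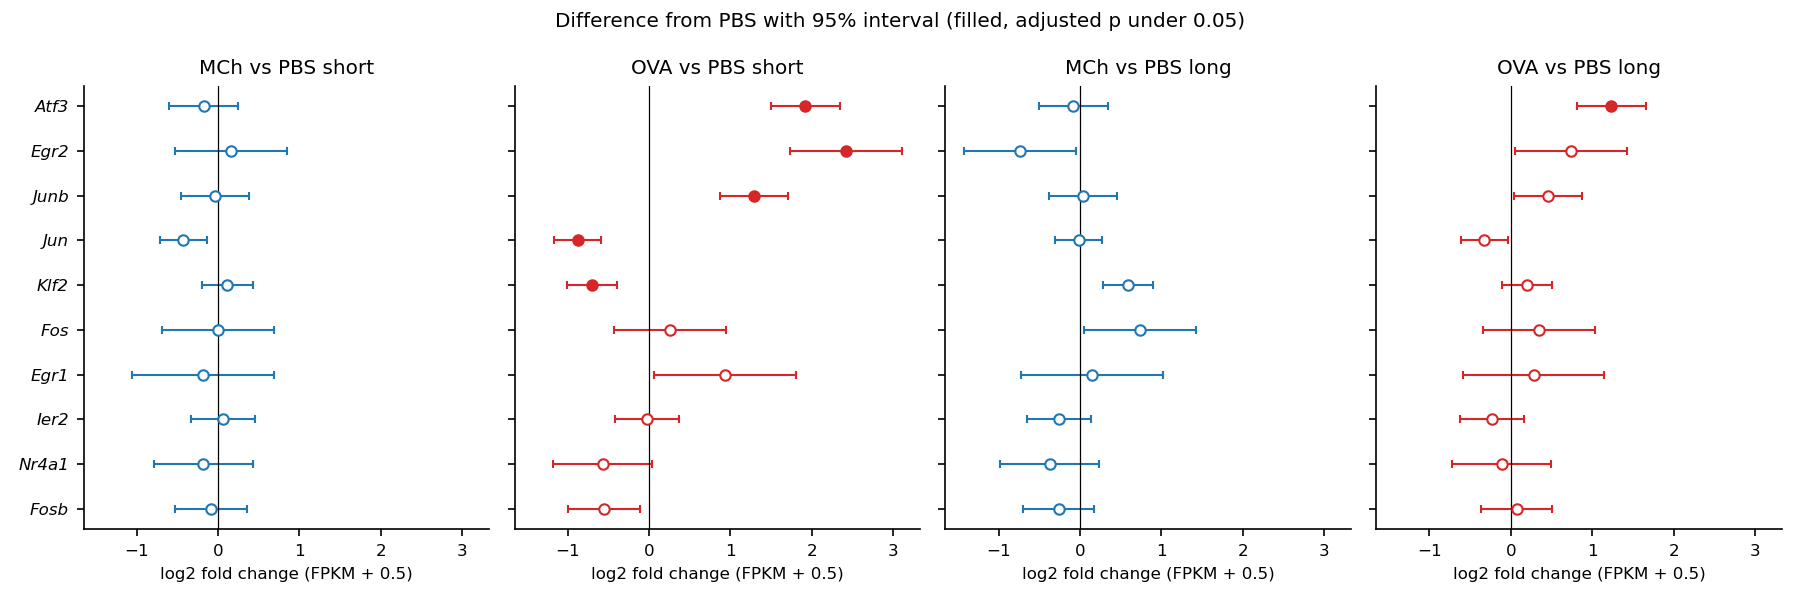
Log2 fold change of each member from PBS of the same protocol (horizontal axes, on FPKM + 0.5), with its 95% interval from limma; filled points have an adjusted p under 0.05. After short OVA 5 members are filled, after long OVA only Atf3, and after MCh none in either protocol.

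Other genes of the early response also went in both directions after short OVA. In this comparison 12.4% of all tested genes were called higher and 11.7% lower. The counts of related factors and of feedback inhibitors lie not far from these shares. The same shares apply to the other lists given for short OVA. Of 16 related transcription factors 14 were tested, and 3 were called higher and 2 lower (median log2 0.11): Myc rose from 0.491 ± 0.181 to 1.34 ± 0.157 FPKM, with Ier5 and Ier3 also higher, and Klf6 was lower by -0.46. Of 14 feedback inhibitors, genes that end the signal, 2 rose and 2 fell (median -0.08). Socs3, which blocks JAK and STAT signalling, rose by 2.29 ± 0.22 on the log2 scale (SE; adjusted p = 5.19e-07), and Tnfaip3, an inhibitor of NF-kappa-B, by 1.40. Dusp1, the phosphatase of p38 and JNK, fell by 1.27 ± 0.21 (SE; adjusted p = 2.08e-04), from 76.0 ± 23.9 FPKM in short PBS to 30.4 ± 3.31, and Dusp6, the phosphatase of ERK, by 0.50. The 17 kinases and activators upstream of the family gave 0 higher and 1 lower call, Mef2d at -0.61 (adjusted p = 0.0487).

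Of 15 secreted and other products of the early response 7 were higher and 4 lower after short OVA (median log2 0.52). Il6 stood at 0.0042 FPKM in short PBS and 1.74 ± 0.379 (SD, n = 4) in short OVA. The chemokine genes Ccl2 and Cxcl1 rose by 5.78 ± 0.61 and 4.53 ± 0.54 on the log2 scale (SE), and Gadd45g, a stress sensor of the growth arrest family, by 2.36 ± 0.24. Of 9 genes known to respond to Klf2 in endothelium, 2 were higher and 5 lower (median -0.51). The adhesion molecules Sele and Vcam1, which Klf2 is known to repress, rose by 2.77 ± 0.33 and 1.45 ± 0.19 (SE). S1pr1, a receptor gene that Klf2 induces, fell by 1.08 ± 0.17, and Edn1, the vasoconstrictor endothelin that Klf2 represses, fell by 1.30 ± 0.24 (SE).

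Markers of several cell types moved in the same comparison. Of 8 macrophage and monocyte markers 6 were higher and 0 lower, with a summed FPKM of 255 to 316 in short PBS and 4927 to 7285 in short OVA, most of it Chil3 (196 ± 19.3 and 5834 ± 943); C1qb rose by 2.86 and Ccr2 by 1.89 on the log2 scale. Of 6 eosinophil markers 5 were higher, with sums of 6.32 to 7.74 and 11.9 to 26.0 FPKM, and Epx was near 0 in short PBS (0.0141 FPKM). Of 8 neutrophil markers 1 was higher and of 8 T and B cell markers 0 in either direction. Of 8 endothelial markers 4 were lower, Tek by -0.98, Kdr by -1.06, Cdh5 by -0.94 and Erg by -0.62, while Pecam1 differed by -0.20 (adjusted p = 0.195), and their sum was 1775 to 2326 in PBS and 1520 to 1812 in OVA. The part of these cell types in the changes of Atf3, Egr2, Junb and Klf2 was not tested.

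After long OVA challenge only Atf3 was called, in a comparison where 1.03% of all tested genes were higher and 0.153% lower. Atf3 was at 1.09, 1.39 and 1.06 FPKM in long PBS and at 5.05, 3.14, 2.76 and 3.12 in long OVA, all 4 above the controls, with a log2 difference of 1.23 ± 0.20 (SE; adjusted p = 0.00235). Library a was the highest, and without it the difference was 1.07. Egr2 was at 2.67, 1.88 and 1.81 FPKM in PBS and 5.50, 3.36, 2.71 and 4.17 in OVA, above the controls by a narrow margin (log2 0.74 ± 0.33, SE; adjusted p = 0.577). Junb (7.73 ± 0.667 and 10.8 ± 1.07 FPKM) and Fos (7.88 ± 0.412 and 10.2 ± 0.938) were also wholly above the controls, and Jun (71.9 ± 1.95 and 57.5 ± 7.08; SD, n = 3 and 4) wholly below, none of them called. Being apart is common in this comparison, at 9.95% of all tested genes for higher and 13.2% for lower. With only the PBS and OVA groups of the long protocol in the fit Junb passed as well (adjusted p = 0.0338), and with library weights Jun, Junb and Egr2 did (0.0018, 0.0052 and 0.0185). Calls over all tested genes rose too, from 1.18% to 6.52% and 13.1% in these fits.

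Around the family, Socs3 was the only called gene of the 14 feedback inhibitors after long OVA, at 0.98 ± 0.22 (SE; adjusted p = 0.0306), and 0 of the 14 related factors and 0 of the 15 other products were called by limma. The macrophage and monocyte list had 5 of 8 members higher. Its sums were 248 to 964 FPKM in long PBS and 1902 to 2828 in long OVA. In each protocol taken alone most of these markers, like Atf3, were called higher after OVA. The counts do not say how many markers were called in both. The part of these markers in the Atf3 difference was not tested. Eosinophil markers gave 1 higher call of 6 (sums 9.06 to 10.9 and 8.81 to 12.9 FPKM).

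Methacholine moved no member past the threshold in either protocol. In the short protocol 0 of 10 members were called by limma, where 0.00638% of all tested genes were, and 1 member, Jun, had an unadjusted p under 0.05. Jun was at 63.4, 69.9, 75.4 and 44.8 FPKM in short MCh, all below the 3 PBS values (log2 -0.43 ± 0.14, SE; adjusted p = 0.440); 5.52% of all tested genes were apart as lower and 3.24% as higher. The lowest of these values came from library 4, the one with the steep length trend, and without that library the difference was -0.27. The 95% intervals still allowed changes of some size: -0.60 to 0.24 for Atf3, -0.53 to 0.85 for Egr2 and -1.05 to 0.68 for Egr1.

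In the long protocol 0 of 10 members were called by limma, against 0.0638% of all tested genes, and 3 had an unadjusted p under 0.05. Klf2 was at 28.3, 22.9, 24.6 and 25.6 FPKM in long MCh and at 16.9, 16.0 and 17.0 in long PBS, with no overlap (log2 0.59 ± 0.15, SE; adjusted p = 0.182). Leaving out MCh library d brought it past the threshold (0.58, adjusted p = 0.0448), and 4.98% of all tested genes were then called. Fos was also wholly above PBS, at 25.4, 9.05, 13.7 and 10.4 FPKM (log2 0.74 ± 0.33), and Egr2 wholly below, at 1.48, 1.30, 0.219 and 1.77 (-0.74 ± 0.33; SE). Of all tested genes 2.6% were apart as higher and 10.5% as lower. The extreme values of both genes, 25.4 in library a and 0.219 in library c, came from the libraries with most genes at 0, and without the sparse libraries the differences were 0.28 for Fos and -0.36 for Egr2, against 0.53 for Klf2. Over all tested genes the median log2 difference was -0.14 here, and quantile scaling moved it by 0.16 and that of long OVA against long MCh by -0.18, while no scaling turned the direction of Klf2, Fos or Egr2. Fosb was listed at 0 in long MCh library c and at 0.0793 in library a, against 0.607 and 0.437 in the other two.

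Set directly against MCh rather than PBS, OVA gave much the same members. In the short protocol Atf3 (log2 2.10 ± 0.19), Egr2 (2.25 ± 0.31) and Junb (1.33 ± 0.19) were higher in OVA and Klf2 (-0.82 ± 0.14) and Jun (-0.45 ± 0.13; SE) lower, where 9.37% of all tested genes were higher and 5.82% lower. The Jun call (adjusted p = 0.0209) was lost when short MCh library 2 or 3 or short OVA library 1 or 3 was left out (adjusted p up to 0.094), or when only the 2 groups were fitted (0.115). Egr1 differed by 1.12 ± 0.38 (SE; adjusted p = 0.056), and by 1.57 (adjusted p = 0.0024) without short MCh library 1, in which it stood at 12.4 FPKM against 3.71, 4.73 and 1.87 in the others. Without the 3 sparse libraries 8 of 10 members passed, and the share of all tested genes called went from 15.2% to 25.2%. In the long protocol Atf3 (1.31 ± 0.19) and Egr2 (1.47 ± 0.31; SE, adjusted p = 0.0059) were higher in OVA, with 4.75% of all tested genes higher and 1.31% lower. Fitted with its 2 groups alone, the Egr2 difference was not called (adjusted p = 0.117). These comparisons share their OVA libraries with those against PBS and are not independent of them.

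The controls themselves differed between protocols in 1 member. Klf2 was at 34.2, 31.7 and 46.9 FPKM in short PBS and at 16.9, 16.0 and 17.0 in long PBS, a log2 difference of -1.13 ± 0.16 (SE; adjusted p = 0.00536) where only 0.147% of all tested genes were called lower and 0.0191% higher. The call was lost without short PBS library 3 (-0.97, adjusted p = 0.0569), without long PBS library 2 (-1.11, 0.0757) and with the replicate block (adjusted p = 0.0586), while the difference kept its direction in each. Fos was lower in every long PBS library, at 8.18, 8.05 and 7.41 FPKM against 13.9, 17.1 and 18.6 (log2 -1.01 ± 0.35, SE; adjusted p = 0.510), and passed without the 3 sparse libraries (adjusted p = 0.0075) and with only these 2 groups fitted (0.039). In those fits 0.957% and 1.07% of all tested genes were called, against 0.166% before. In all, Fos, Jun, Junb, Egr1 and Klf2 were wholly lower in long PBS, where 9.16% of all tested genes were, and Egr2 wholly higher, where 18.9% were. The members' median log2 difference was -0.39, against 0.05 over all tested genes.

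Of 8 heat shock genes, which respond to stress of the tissue, 4 were called lower in the long PBS lungs and 0 higher (median log2 -1.32). Hspa1b was at 149 ± 91.5 FPKM in short PBS and 10.6 ± 1.48 in long PBS, Hspa1a at 86.7 ± 66.5 and 6.88 ± 0.598 (SD, n = 3), and Hspb1 and Hspe1 fell by 1.69 and 1.10 on the log2 scale. Of 14 feedback inhibitors Nfkbia, the inhibitor of NF-kappa-B, was called lower, by -0.84 (adjusted p = 0.0478). No gene of the 14 related factors was called by limma, although 5 had an unadjusted p under 0.05, Klf4 among them at -0.74 (adjusted p = 0.0605). The 7 cardiac muscle markers, which come from heart or from the muscle sleeve of pulmonary veins, summed to 116 to 440 FPKM in short PBS and 36.9 to 225 in long PBS, with 0 called. No endothelial marker was called, and their sum was 1775 to 2326 and 1951 to 2117 FPKM. Animals of the long protocol were also older, and protocol, age and the day of collection cannot be told apart.

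The difference between the PBS groups enters every comparison of protocols. The OVA effect, OVA minus PBS, differed between protocols in Klf2 alone: it was -0.70 in the short and 0.20 in the long protocol, a difference of 0.90 ± 0.21 on the log2 scale (SE; adjusted p = 0.0276), where 0.459% of all tested genes were called higher and 1.42% lower. In the levels, Klf2 was 22.7 ± 2.63 FPKM in short OVA and 19.3 ± 2.48 in long OVA (SD, n = 4), whose values overlapped, while the PBS means were 37.6 and 16.6. The call was lost under median-of-ratios scaling (adjusted p = 0.0632) and on leaving out any one of 8 libraries, short PBS 3, short OVA 1 or 4, long PBS 1, 2 or 3, and long OVA b or d (adjusted p up to 0.112), though the difference stayed between 0.74 and 1.01. The Egr2 effect was smaller in the long protocol by 1.68 ± 0.47 (log2, SE) without passing (adjusted p = 0.0721), and passed without the 3 sparse libraries (0.0044), with a pseudocount of 1 (0.0388) and with the length trend removed (0.0491). In those fits 6.57%, 2.27% and 2.16% of all tested genes were called, against 1.88% before. The Junb effect was smaller by 0.83 ± 0.28 (adjusted p = 0.159) and the Atf3 effect by 0.69 ± 0.29 (SE; adjusted p = 0.258). The MCh effect differed between protocols in 0 members and in 0.0% of all tested genes by limma, with 2 members, Jun and Klf2, at an unadjusted p under 0.05.

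Within groups, few pairs of members passed a test for varying together. Deviations of log2(FPKM + 0.5) from the group mean over the 22 libraries were correlated for all 45 pairs of members, with p from 100000 two-sided permutations within groups; 30 of the 45 Pearson correlations were positive, with a median r of 0.05. Only Fos and Egr1, both targets of serum response factor, passed adjustment over the 45 pairs (r = 0.903, permutation p = 4.7e-04, adjusted p = 0.0211; Spearman's rho 0.72, adjusted p = 0.0774). With the 2 libraries farthest from the median of Fos left out, short MCh 1 and long MCh a, r was 0.795. These 2 and long MCh c are the sparse libraries, and without all 3 r was 0.624 (permutation p = 0.0708, adjusted p = 0.917). The call was also lost without any 1 of the 4 short MCh libraries, 3 of which are not sparse. In the 3 sparse libraries, in the order named, Fos stood at 36.6, 25.4 and 13.7 FPKM and Egr1 at 12.4, 8.53 and 5.98. These were the highest values of both genes in their 2 groups. Junb and Ier2 had r = 0.680 (adjusted p = 0.146; rho 0.717, adjusted p = 0.0774), and r = 0.781 (adjusted p = 0.0414) without the sparse libraries. By rho 0 of the 45 pairs passed, and 4 pairs had an unadjusted Pearson p under 0.05.

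**Figure D4:**
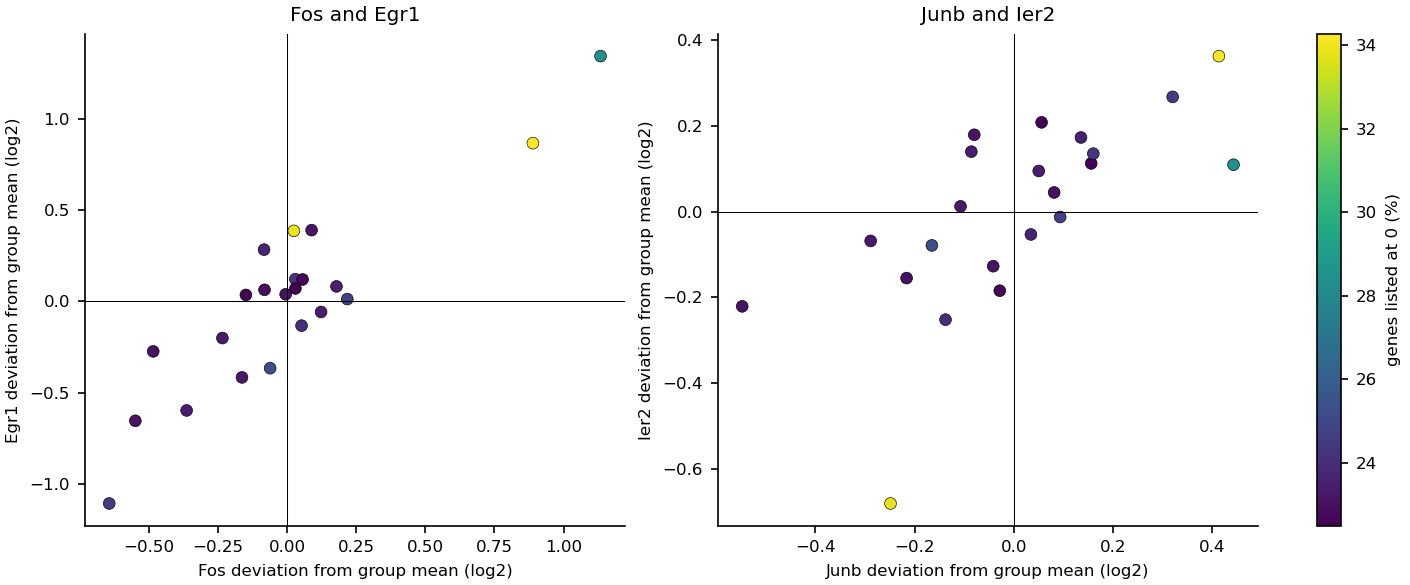
Deviation of each of the 22 libraries from its group mean on the log2(FPKM + 0.5) scale, for Fos (horizontal) and Egr1 (vertical) on the left and Junb and Ier2 on the right; color gives the share of genes listed at 0 in the library. The 2 points at the upper right of the Fos and Egr1 panel are short MCh library 1 and long MCh library a, with 28.3% and 34.3% of genes at 0.

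Across all 22 libraries, groups included, the genes whose log2 levels were most like each member differed from member to member. Correlations here are descriptions over libraries that share their groups. Atf3 was closest to Tnip3, an inhibitor of NF-kappa-B (r = 0.966), then Ctsb (0.960), which encodes the lysosomal protease cathepsin B, and Arg1 (0.958), arginase. Egr2 was closest to Mapkapk3 (0.967), a kinase downstream of p38, to Tmem26 (0.965) and to the chemokine gene Ccl12 (0.964). Junb was closest to Ifi30 (0.962), the lysosomal thiol reductase, then Tmem176a (0.939) and Npm1 (0.934). Jun followed Ets2 (0.937), Snrk (0.933) and Tgfbr3 (0.932), and Klf2 followed Arl4d (0.909), Arl4a (0.882) and Klf4 (0.875), the closely related factor of endothelium. Klf4 was at 28.1 ± 6.49 FPKM in short PBS, 21.1 ± 1.38 in short OVA, 16.4 ± 1.93 in long PBS and 17.6 ± 1.14 in long OVA (SD, n = 3 or 4). For Fos the best r was 0.818, with Phyhd1, for Egr1 0.853, with Lmnb1, for Ier2 0.888, with Zfp637, for Nr4a1 0.884, with Popdc2, and for Fosb 0.846, with Rab23.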

How the data were processed

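The 10 members, the gene lists set beside them and the alternatives were chosen with earlier results of these data known, so no list is independent support for a direction. Per the labels' protocols, lung total RNA came from RNeasy extraction followed by DNase I, and the libraries are TruSeq Stranded Total RNA. The values deposited by the authors are FPKM, in a table of 20938 genes and another of 36844 transcripts. The tools STAR, Trim Galore and DESeq2 and the build mm10 are those of the submitters' processing notes. Their versions and roles, and the source of FPKM, stand as not given in the sources used here. Tissue is lung in the sample labels, which were followed, and trachea in the series text. No 2 libraries had identical values.

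Deposited values were taken to log2(FPKM + 0.5). The 15682 genes that reached an FPKM of 0.1 in 3 or more libraries were fitted with limma 3.58.1 in R 4.3.3, with 1 coefficient per group, all 22 libraries in 1 fit, an intensity trend and 9 contrasts, and p-values were adjusted by Benjamini-Hochberg over all tested genes in each contrast. Correlations, ratios and motif searches used Python 3.11.15. The fit was tested on simulated data. Depth was estimated from the smallest steps of FPKM times length over genes with 1 transcript, and covers counting error only. Named genes are the 10 members, up to 4 genes of each list with the smallest p in the comparison described, and the 3 non-members with a mean FPKM of at least 1 most like each member; the first of the 3 is named where r was lower. Genes named by hand after their values were seen are Klf4 in the control comparison, Pecam1, and Epx in the levels given. Each result was recomputed with another pseudocount (0.1 or 1), without a filter or with one at FPKM 1, after quantile or median-of-ratios scaling, with array weights, from summed transcripts, from the compared groups alone, after removal of length trends, without the 3 libraries with most genes at 0, with the replicate number as a block, and without each library in turn. Positions are those of GENCODE and RefSeq on GRCm38, the build named mm10.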

Additional observations from a re-analysis of the deposited data

Results flagged for a closer look

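Among the 40 sets of 4 libraries examined (10 members in 4 groups), 1 held a library that stood apart by Dixon's criterion. Chance flags about 1 in 20 sets, so 1 in 40 is no more than chance gives. This was Atf3 in long OVA library a, at 5.05 FPKM against 2.76 to 3.14 in the other 3. Without it the log2 difference from long PBS was 1.07 in place of 1.23 and was still called. The groups of 3 PBS libraries were not examined in this way.

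The OVA effect on Klf2 differed between the protocols by 0.90 on the log2 scale in the test of the difference itself, being -0.70 in the short and 0.20 in the long protocol, where the level in PBS also differed by -1.13. Whether the aerosol or the level of the controls sets this difference was not tested.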

How the results depend on the processing

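Over the alternatives run, 962 results kept their direction and side of the threshold; for single members 43 came to pass the threshold and 18 ceased to. Numbers of members called, with 5 for OVA against PBS short, 1 long, 5 for OVA against MCh short, 2 long, 1 for PBS long against short and 1 for the OVA effect, moved as follows. In the same comparisons 24.2%, 1.18%, 15.2%, 6.06%, 0.166% and 1.88% of all tested genes were called. With array weights the members called were 8, 4, 8, 5, 6 and 7, and 51.0%, 13.1%, 57.3%, 13.7%, 10.6% and 31.2% of all tested genes. With only the compared groups fitted they were 8 for OVA against PBS short, 2 long, 1 for OVA against MCh long, 2 for the PBS groups and 5 for the OVA effect, with 48.4%, 6.52%, 1.86%, 1.07% and 28.8% of all tested genes. Without the 3 libraries with most genes at 0 they were 8 for OVA against PBS short, 8 for OVA against MCh short, 2 for the PBS groups and 3 for the OVA effect, with 43.0%, 25.2%, 0.957% and 6.57% of all tested genes. Removing length trends gave 4 for OVA against MCh long and 2 for the OVA effect, with 9.18% and 2.16% of all tested genes. The OVA effect was also 2 at a pseudocount of 1, 2 under quantile scaling and 0 under median-of-ratios scaling. There 2.27%, 2.4% and 1.79% of all tested genes were called. Leaving out 1 library gave 0 to 2 for the OVA effect, with 0.842% to 1.98% of all tested genes called. It gave 0 to 1 for the PBS groups, with 0% to 0.217%, and 0 to 1 for MCh against PBS long, with 0.00638% to 4.98%. For OVA against MCh short it gave 4 to 6, with 9.92% to 30.8%. Quantile scaling gave smaller moves, to 7 for OVA against PBS short and 6 for OVA against MCh short. Of all tested genes 28% and 18.5% were then called. Fosb and Nr4a1 passed there after short OVA (limma, adjusted p = 0.0147 and 0.0319). Median-of-ratios scaling gave 3 for OVA against MCh long, with 6.2% of all tested genes. The cause of these moves was not tested.

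Ier2 after short OVA turned from -0.03 to 0.0352 under median-of-ratios scaling, to 0.0242 under quantile scaling and to 0.0567 without short PBS library 3, its range on leaving out 1 library being -0.1217 to 0.0567, and Fosb after long OVA turned from 0.07 to -0.0036 under quantile scaling. Of the 45 pairs, 1 passed as reported, 0 under quantile scaling, 2 with length trends removed, and 0 to 2 on leaving out 1 library: 0 without any one of the 4 short MCh libraries and 2 without long MCh library a or c.

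Samples with the same replicate number did not deviate together (correlations -0.27 to 0.36), so the numbers were not taken to pair animals. In the 14 numbered libraries the replicate block left 0 members called between the PBS groups (Klf2, adjusted p = 0.0586), where the same libraries without the block gave 1. Of all tested genes 0.0319% were called there with the block and 0.121% without it. After short OVA the 14 numbered libraries gave 6 both with the block and without it, Fosb included (limma adjusted p = 0.0364 and 0.0094). Of all tested genes 23.1% were then called with the block and 30.4% without it. Long MCh and long OVA columns carry no matching number and could not be blocked. Fosb, at a median of 51 estimated fragments per library, is the member most limited by depth.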

Other observations

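Summed over the 10 members, transcript FPKM was 232 ± 29.5 in short PBS, 221 ± 18.2 in short MCh, 248 ± 24.3 in short OVA, 158 ± 3.39 in long PBS, 174 ± 13.8 in long MCh and 165 ± 5.47 in long OVA (SD, n = 3 for PBS and 4 for MCh and OVA). The totals of short OVA (213 to 266 FPKM) and short PBS (208 to 265) overlapped, while their make-up differed: Junb was 30.6% of the sum against 13.1% in short PBS, Jun 16.7% against 32.9%, Klf2 15.4% against 27.0%, Atf3 7.75% against 1.87% and Egr2 4.91% against 0.742%. In long OVA the shares were 17.8% for Junb and 31.4% for Jun. These are shares of a chosen set of genes, not corrected for trends with transcript length, and were not tested.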
